A study of Homo sapiens with 18 samples.

Results

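RPL14 encodes a protein of the large ribosomal subunit, and RPL14P1 is a processed pseudogene of it, an intronless copy elsewhere in the genome. Both carry an uninterrupted run of CTG triplets. The pair makes up 2 of the 58395 genes in the deposited tables, and both were found there once by symbol. Both were chosen by earlier results from these same libraries, taken here to be their large falls after the short RNA sCAG, so all values from sCAG against its control are given as a description with no test. After sCAG, the normalized count of RPL14 was 17.3-fold lower in HeyA8 cells and 12.7-fold lower in PC3 cells, and that of RPL14P1 was 95.8-fold and 51.0-fold lower. In bulk RNA, fewer cells that hold a transcript and less of it per cell cannot be told apart. After the other short RNA, sG5C, both genes were 1.32-fold to 1.57-fold lower than with the control, as most other ribosomal protein genes were lower too.

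HeyA8 cells, labelled as ovarian cancer, and PC3 cells, labelled as prostate cancer, both of wt genotype, were transfected with RNAiMax and 10 nM of short RNA, and total RNA was taken after 48 h. Each line received sNT8, which the deposited tables use as the reference, sG5C or sCAG, in 3 libraries lettered A to C, so that the 18 libraries form 6 groups and all 6 include the transfection reagent and a short RNA. The titles of the sG5C libraries carry another name, Mxy, and the treatment field, which says sG5C, was followed. No label gives the sequences of the short RNAs. The labels do not say that libraries came from separate cultures, so p-values measure only the spread between these libraries, which may be technical. Library totals ran from 31232377 to 41384838 reads in genes.

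Of the defining markers of each label, the ovarian transcription factor gene PAX8 had a mean of 352.3 CPM (reads scaled to a common library total) in HeyA8 with sNT8, while MUC16, the CA125 antigen gene, was at 0. The prostate homeobox gene HOXB13 had 247.4 CPM in PC3 with sNT8, while KLK3, the prostate-specific antigen gene, was at 0. The leukocyte genes PTPRC, CD3E and CD68 summed to 0.0298 to 0.488 CPM in all 18 libraries. The endothelial genes PECAM1, CDH5 and KDR summed to 72.1 to 76.9 CPM in HeyA8 with sNT8, mostly from CDH5, and to 97.3 to 114.2 CPM in PC3 with sNT8, mostly from KDR. After sCAG that endothelial sum was 16.1 to 17.95 CPM in HeyA8 and 117.4 to 143.7 CPM in PC3. The part of these marker levels in the results below was not tested.

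Cytosolic ribosomes are built from a small and a large subunit, each made of ribosomal RNA and a set of proteins needed in nearly equal numbers, and the mRNAs of these proteins are among the most abundant in growing cells. eL14, the product of RPL14, sits on the surface of the large subunit, and the human protein holds a stretch of alanines towards its C-terminal end whose codons form a triplet run that is known to vary in length between people. Ribosomal protein mRNAs have been copied back into the genome many times, and reads from a mature mRNA and from such a copy can be hard to assign.

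The run and its surroundings are shown first because they are what the pair shares. RPL14 (ENSG00000188846) lies on the plus strand of chromosome 3, from 40457292 to 40468587 (hg38), and no other gene of the tables overlaps it. RPL14P1 (ENSG00000139239) lies on the plus strand of chromosome 12, from 62965325 to 62965969, also with no overlapping gene. The RPL14 coding sequence without its stop codon is 645 bases over 5 exon junctions, and the run of 10 CTG units takes coding bases 446 to 475, at chr3:40462030-40462059. Read in the frame of the protein it gives 10 alanine codons in a row, codons 150 to 159. Of the 9 annotated RPL14 transcripts, 6 hold the run. In RPL14P1 the run is at chr12:62965770-62965799. The reference sequence around the run in each gene (GENCODE 29 on hg38, 5′ to 3′ on the coding strand, the longest CTG run in capitals), with the minus-strand copies RPL14P3 at chr4:140366373-140366452 and RPL14P5 at chrX:1009184-1009265 for comparison, was as follows.
RPL14: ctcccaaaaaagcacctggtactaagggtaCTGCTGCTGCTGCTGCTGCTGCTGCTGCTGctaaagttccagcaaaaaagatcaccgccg
RPL14P1: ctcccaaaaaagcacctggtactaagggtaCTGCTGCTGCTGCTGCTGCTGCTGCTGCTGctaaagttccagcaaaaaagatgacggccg
RPL14P3: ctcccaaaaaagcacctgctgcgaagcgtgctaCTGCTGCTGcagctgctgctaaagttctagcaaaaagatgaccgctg
RPL14P5: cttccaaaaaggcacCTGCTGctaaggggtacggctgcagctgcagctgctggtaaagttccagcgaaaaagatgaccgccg
RPL14 and RPL14P1 hold the same 10 units with the same 30 bases before them. The longest uninterrupted run is 3 units in RPL14P3 and 2 units in RPL14P5, with other bases in between. Among 58216 genes with an annotated transcript, 20 genes (0.0344%) hold a run of at least 10 units in any transcript, and RPL14 and RPL14P1 are 2 of them. The longest run in the 78 other cytosolic ribosomal protein genes was 4 units, and their median was 2.

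RPL14P1 is 98.8% identical to the RPL14 coding sequence over 645 aligned bases, against 93.2% for RPL14P3 and 87.4% for RPL14P5. The 8 substitutions from RPL14 to RPL14P1, counted from 1 at the first base of the start codon, are A206G, G210A, G221A, T353C, C498G, C501G, C520T and G567A. RPL14P1 holds no stop codon within the 215 codons, and 5 of its codons give another amino acid. The stretch that follows the run, with the differing bases in capitals, shows the positions that can tell reads of the genes apart there (RPL14 at chr3:40462060-40462119 and RPL14P1 at chr12:62965800-62965859, coding bases 476 to 535). It was chosen because no stretch of its length in the coding sequence holds more differences.
RPL14: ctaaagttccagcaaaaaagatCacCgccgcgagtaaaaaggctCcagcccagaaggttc
RPL14P1: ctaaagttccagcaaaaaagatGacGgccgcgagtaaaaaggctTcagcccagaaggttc
Of all stretches of 50 bases in the RPL14 coding sequence, 60.7% occur without a difference in RPL14P1, and 33.5% of all stretches of 100 bases do. Neither the labels nor the file headers give the read length or the treatment of reads with more than 1 match. The split of reads between both genes is therefore uncertain, and the changes after sCAG are also given for their summed reads.

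With the control sNT8, RPL14 had 9488, 8718 and 8749 reads in HeyA8 replicates A, B and C and 8692, 7688 and 7944 reads in PC3. RPL14P1 had 5935, 5380 and 5676 reads in HeyA8 and 3698, 3404 and 3549 in PC3. Scaled by TMM over all 18 libraries, the RPL14 level was 250.8 ± 10.0 CPM in HeyA8 and 218.6 ± 2.2 CPM in PC3 (SD, n = 3 each), and the RPL14P1 level was 158.1 ± 4.4 and 95.8 ± 1.9 CPM. The libraries of the lines did not overlap for either gene. Per kilobase, with the coding length of 645 bases for both genes, the HeyA8 sNT8 level of RPL14 was 388.9 ± 15.5 CPM per kb and that of RPL14P1 was 245.1 ± 6.8. The order of these per-length levels depended on the length taken for RPL14: over its transcript RPL14-202, of 916 bases, it was 273.8 CPM per kb, and over all of its annotated exons, 8626 bases, it was 29.1. RPL14P3 had 78 to 90 reads in HeyA8 and 62 to 92 in PC3 with sNT8, and RPL14P5 had 1 to 6 reads, so RPL14P1 was by far the most counted copy.

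**Figure D1:**
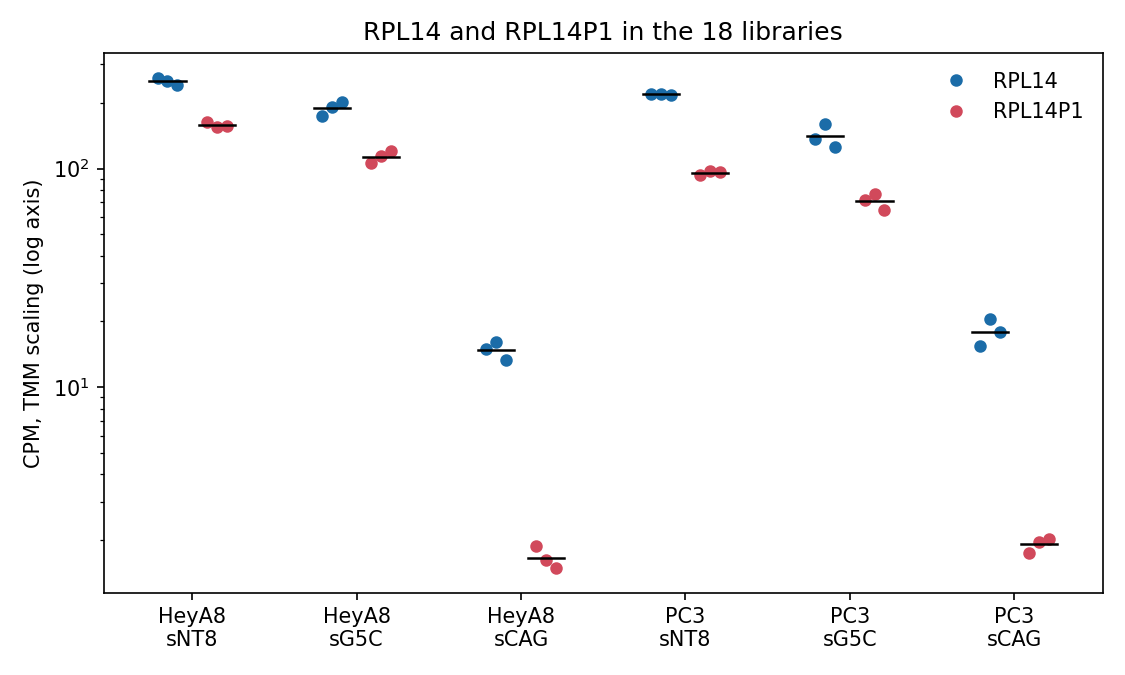
Level of RPL14 and RPL14P1 in each of the 18 libraries (points, CPM with TMM scaling, log axis) with the group mean (line), for the 6 groups of cell line and short RNA. The 6 sCAG libraries lie between 13.3 and 20.4 CPM for RPL14 and between 1.49 and 2.03 CPM for RPL14P1, below every other library.

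Over the 6 groups, RPL14 had its highest mean level in HeyA8 with sNT8 (250.8 CPM), followed by PC3 with sNT8 (218.6), HeyA8 with sG5C (188.9), PC3 with sG5C (140.6), PC3 with sCAG (17.9) and HeyA8 with sCAG (14.8). RPL14P1 had the order HeyA8 with sNT8 (158.1 CPM), HeyA8 with sG5C (113.5), PC3 with sNT8 (95.8), PC3 with sG5C (70.9), PC3 with sCAG (1.92) and HeyA8 with sCAG (1.67). For both genes the neighbours in these orders did not overlap, except the PC3 and HeyA8 sCAG groups at the low end, whose libraries did. The orders differ at 1 place, since RPL14P1 in HeyA8 with sG5C was still above PC3 with sNT8.

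Whether the lines differ before either active short RNA was compared between the sNT8 libraries with edgeR's quasi-likelihood test on the recovered reads of all 18 libraries. RPL14P1 was lower in PC3 than in HeyA8 by a log2 fold change of -0.72 ± 0.06 (SE, adjusted p = 1.5e-15). RPL14 was lower in PC3 by -0.20 ± 0.08 (adjusted p = 0.042), a call that did not hold without any 1 of 5 of the 6 sNT8 libraries: without HeyA8 replicate A it was -0.17 (adjusted p = 0.14), without HeyA8 replicate B -0.20 (0.091), and without PC3 replicates A, B or C -0.20, -0.20 and -0.19 (0.090, 0.088 and 0.11). With library totals in place of TMM scaling RPL14 was higher in PC3, at 0.06 (adjusted p = 0.48), while the median of all genes moved from 0.10 to 0.35. Between the lines 71.3% of 27105 genes were called, and of the 78 other ribosomal protein genes 68 were lower and 3 higher in PC3, with a median of -0.96 against 0.10 over all genes. Of these 78 genes, 68 lay below RPL14 and 50 below RPL14P1 in log2 fold change. The part of the endothelial and ovarian marker levels, which also differed between the lines, was not tested.

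After sG5C in HeyA8, the normalized counts of RPL14, the reads divided by the authors' size factors, were 6038, 6855 and 7188 in replicates A, B and C, against 9199, 8795 and 8405 with sNT8. The highest sG5C library was below the lowest sNT8 library. RPL14 fell by 1.32-fold, a log2 fold change of -0.40 ± 0.06 (SE; limma adjusted p = 2.0e-06, lower in 3 of 3 libraries). RPL14P1 had 3684, 4095 and 4285 normalized counts with sG5C against 5754, 5428 and 5453 with sNT8, again with no overlap. It fell by 1.38-fold (limma adjusted p = 6.8e-08), which is -0.47 ± 0.06 (SE) on the log2 scale. In this comparison 27.9% of 22354 genes were called lower and 24.6% higher, so a call alone is common. The summed levels of the lines' own markers were also lower after sG5C in HeyA8, at 509.2 to 561.6 CPM for 4 epithelial genes against 1047 to 1157 with sNT8, and at 147.7 to 165.5 CPM for 3 ovarian genes against 352.0 to 364.5; their part in the falls was not tested.

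In PC3, RPL14 had 5050, 5799 and 4561 normalized counts with sG5C against 8080, 8068 and 7909 with sNT8. It fell by 1.57-fold, a log2 fold change of -0.65 ± 0.07 (SE; limma adjusted p = 6.2e-09), with the groups apart. RPL14P1 had 2636, 2778 and 2356 against 3437, 3572 and 3533, also apart, and fell by 1.36-fold (limma adjusted p = 9.0e-07), which is -0.44 ± 0.06 (SE) on the log2 scale. Here 29.3% of 23731 genes were called lower and 28.6% higher. The 4 prostate marker genes summed to 55.8 to 65.4 CPM after sG5C in PC3 against 247.8 to 264.7 with sNT8, while the epithelial genes summed to 229.8 to 254.4 against 219.0 to 223.6; their part in the falls was not tested. RPL14P3, the shorter-run copy, had 57.8, 48.6 and 45.2 normalized counts with sG5C against 65.1 to 85.5 with sNT8 in PC3 (limma adjusted p = 0.016 for a log2 difference of -0.58 ± 0.20, SE). In HeyA8 it had 48.3 to 75.3 against 74.9 to 90.8, with overlap (-0.34 ± 0.20 and limma adjusted p = 0.15).

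The difference between the lines in the sG5C effect was tested as an interaction with edgeR. For RPL14, PC3 minus HeyA8 was -0.23 (95% interval -0.48 to 0.02, adjusted p = 0.16), which did not pass the threshold. This value did pass without PC3 sG5C replicate B, the least lowered of the PC3 libraries (-0.33, adjusted p = 0.0095), with no filter on low counts (-0.23, adjusted p = 0.010) and with library totals (-0.44, adjusted p = 0.0014), a scaling that moved the median of all genes from 0.00 to -0.20. For RPL14P1 the difference was 0.04 (95% interval -0.12 to 0.20, adjusted p = 0.75). Of 27105 genes 32.8% were called in this test, among them 16 of the 78 other ribosomal protein genes.

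The other ribosomal protein genes form the background for these falls. After sG5C in HeyA8, 70 of the 78 fell and the other 8 did not pass the test, and the median of the family was -0.36 on the log2 scale against 0.01 over all genes tested. The 70 were 29 of 32 genes of the small subunit and 41 of 46 of the large subunit. RPL36A, of the large subunit, fell most, from 467.6 ± 27.6 to 246.0 ± 28.5 normalized counts (SD, n = 3 each). Copies or overlapping genes may share its reads, which was not measured here. FAU, which encodes the small subunit protein eS30 joined to a ubiquitin-like protein, moved least at -0.05, and RPL38 was at -0.07; neither passed the test. RPL14 stood close to the middle of the family, with 31 of the 78 genes below it, and RPL14P1 had 18 below it. After sG5C in PC3, 58 of the 78 fell and 1 rose, with a median of -0.33 against -0.01 over all genes. RPS12 fell by 1.07 and RPLP0, of the ribosomal stalk, by 0.98 on the log2 scale, while RPS15 rose by 0.23 and RPL38 was at 0.16. RPL14 had 8 of the 78 genes below it in PC3, and RPL14P1 had 22. With library totals the HeyA8 count was 57 lower and none higher, and all genes then had a median of 0.14, so that the family's median relative to all genes stayed at -0.37.

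**Figure D2:**
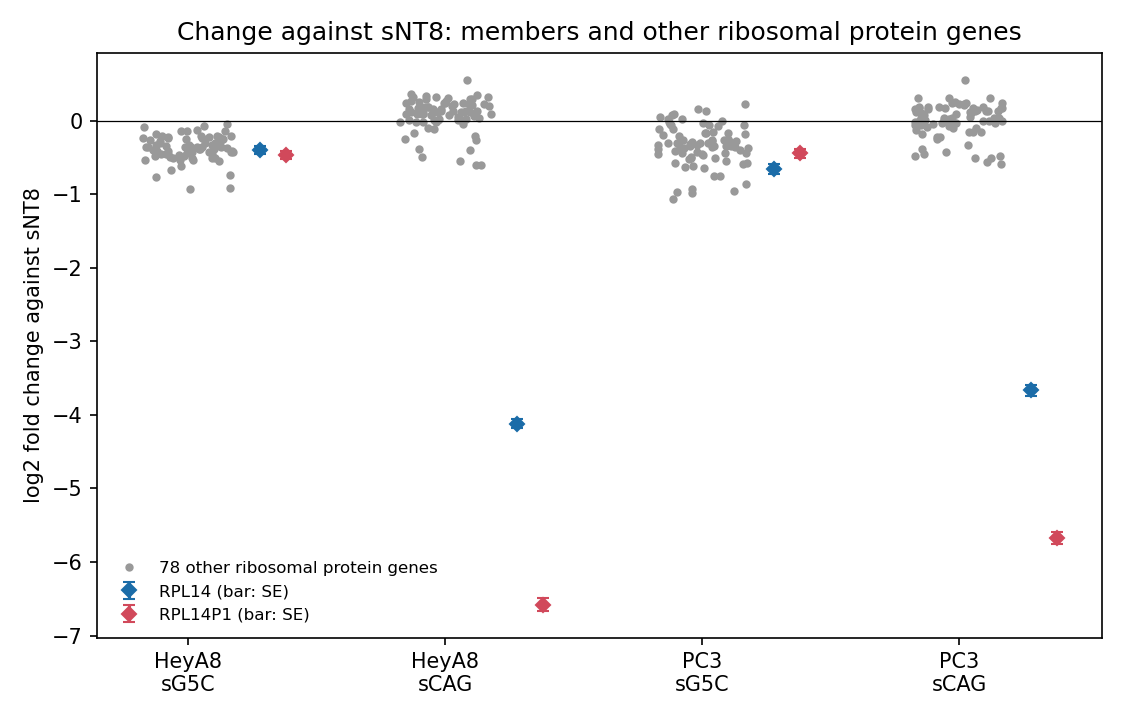
Log2 fold change against sNT8 in 4 comparisons for the 78 other ribosomal protein genes (grey points) and for RPL14 and RPL14P1 (diamonds with SE). After sG5C both genes lie within the grey points, and after sCAG they lie below all of them, at -4.12 and -6.58 in HeyA8 and at -3.66 and -5.67 in PC3.

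After sCAG in HeyA8, the normalized counts of RPL14 were 480.2, 522.0 and 431.5 in replicates A, B and C, against 8682, 8297 and 7885 with sNT8. Every sCAG library was far below every sNT8 library, and the log2 fold change was -4.12 ± 0.06 (SE, n = 3 each). RPL14P1 had 60.8, 52.2 and 48.3 against 5431, 5120 and 5115, a log2 fold change of -6.58 ± 0.09. In reads these RPL14P1 libraries held 59, 49 and 44, so the pseudogene was still counted in each. The sCAG and sG5C comparisons of a line share their sNT8 libraries. Of 21980 genes tested 30% were called lower and 29.3% higher, and 152 genes had a lower log2 fold change than RPL14 and 24 than RPL14P1.

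After sCAG in PC3, RPL14 had 555.6, 728.6 and 649.1 normalized counts against 8146, 8201 and 8006 with sNT8, a log2 fold change of -3.66 ± 0.07 (SE, n = 3 each). RPL14P1 had 62.8, 70.3 and 73.7 against 3466, 3631 and 3577, a log2 fold change of -5.67 ± 0.08, in 67, 78 and 66 reads. The groups were apart by a wide margin for both genes. Of 23130 genes tested 23.1% were called lower and 27.4% higher. In PC3 none of the 23130 genes had a lower log2 fold change than RPL14P1, and 14 had a lower one than RPL14. The reads of both genes were also added, so that the split of counted reads within the pair did not matter. The log2 fold change of the sum was -4.67 in HeyA8 and -4.04 in PC3. Any reads that matched both genes and were counted for neither are missing from this sum, as are those counted for RPL14P3.

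The short-run copy RPL14P3 was also low after sCAG, with 1, 4 and 0 reads in HeyA8 replicates A, B and C and 0, 2 and 5 reads in PC3, against 62 or more reads in each sNT8 library. RPL14P5 had 0 reads in all 3 HeyA8 sCAG libraries and 1, 0 and 0 in PC3, against 1 to 6 with sNT8, so a difference was not detectable at this depth. RPL14P3 has no run as long as that of RPL14, but it is a near copy of both genes, and how many of its reads were its own was not tested.

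The other ribosomal protein genes lay in a narrow range around 0. After sCAG in HeyA8 the 78 genes lay between -0.60 and 0.55, with 43 called higher and 12 lower and a median of 0.12 against 0.01 over all genes. RPL3, a core protein of the large subunit, was the lowest at -0.60 ± 0.04 (SE), from 45809 ± 936 to 30302 ± 702 normalized counts (SD, n = 3 each), and RPL10A, also of the large subunit, was next at -0.60. RPL28 was the highest at 0.55 ± 0.08 and RPL11 was at 0.36. After sCAG in PC3 they lay between -0.58 and 0.56, with 27 called higher and 13 lower and a median of 0.03 against 0.00 over all genes. RPL10A was lowest at -0.58 ± 0.05 and RPL27A next at -0.57, and RPL28 was again highest at 0.56 ± 0.04, followed by RPL10 at 0.31. With library totals the calls in HeyA8 were 20 higher and 21 lower, and those in PC3 were 4 higher and 36 lower. That scaling moved the median of all genes by -0.12 in HeyA8 and -0.17 in PC3. The family's median relative to that of all genes was 0.117 and 0.0373 with the authors' size factors and 0.115 and 0.0351 with library totals. Relative to the family's median RPL14 was at -4.24 in HeyA8 and -3.70 in PC3 on the log2 scale, and RPL14P1 was at -6.71 and -5.71. Reads of the 78 genes together made up 3.49 ± 0.11% of all reads after sCAG and 3.52 ± 0.04% with sNT8 in HeyA8, and 2.05 ± 0.08% and 2.22 ± 0.08% in PC3 (SD, n = 3 each).

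Genes of large subunit assembly, whose products help to build the pre-ribosomal particle in the nucleolus and export it, were counted as a further list of 39. After sCAG 8 were called higher and 19 lower in HeyA8, with a median of -0.10, and 16 higher and 10 lower in PC3, with a median of -0.01. Over all genes the calls were 29.3% higher and 30% lower in HeyA8 and 27.4% and 23.1% in PC3. After sG5C 6 rose and 20 fell in HeyA8, with a median of -0.15, and 4 rose and 26 fell in PC3, with a median of -0.31, where 24.6% of all genes were called higher and 27.9% lower in HeyA8 and 28.6% and 29.3% in PC3. The genes other than RPL14 and RPL14P1 with a run of at least 10 CTG units numbered 11 tested in each line after sCAG. Of these 7 were called lower in each line, 3 higher in HeyA8 and 1 higher in PC3, beside the same shares of all genes, and their medians were -0.49 and -0.71. The lowest of them was at -2.13 in HeyA8 and -2.10 in PC3, above both RPL14 and RPL14P1. After sG5C, 2 of 12 were called lower in each line, and 6 higher in HeyA8 and 3 higher in PC3, again beside the shares of all genes given for sG5C.

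Comparing both genes within a library does not depend on the scaling of libraries. With sNT8, RPL14P1 had 62.6, 61.7 and 64.9 reads per 100 RPL14 reads in HeyA8 replicates A, B and C and 42.5, 44.3 and 44.7 in PC3. The lines did not overlap, and the log2 ratio was lower in PC3 by 0.52 (a difference of -0.52 ± 0.03, SE; exact two-sided permutation test, p = 0.1, the smallest that 3 against 3 libraries allow). After sG5C the reads per 100 were 61.0, 59.7 and 59.6 in HeyA8, just below the sNT8 libraries, and 52.2, 47.9 and 51.7 in PC3, above them. The log2 ratio changed by -0.07 ± 0.02 (SE) in HeyA8 and by 0.21 ± 0.04 in PC3, each with p = 0.1 in the exact two-sided permutation test, which 3 against 3 cannot go below.

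After sCAG, RPL14P1 had 12.7, 10.0 and 11.2 reads per 100 RPL14 reads in HeyA8 and 11.3, 9.65 and 11.4 in PC3. The means were 11.3 ± 1.3 and 10.8 ± 1.0 (SD, n = 3 each), so the sCAG libraries of the lines overlapped, whereas their sNT8 libraries, at 63.0 ± 1.6 and 43.8 ± 1.1, did not. The log2 ratio changed by -2.49 ± 0.10 (SE) in HeyA8 and by -2.03 ± 0.08 in PC3. RPL14P1 was thus lower relative to RPL14 in every sCAG library than in any sNT8 or sG5C library of either line.

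**Figure D3:**
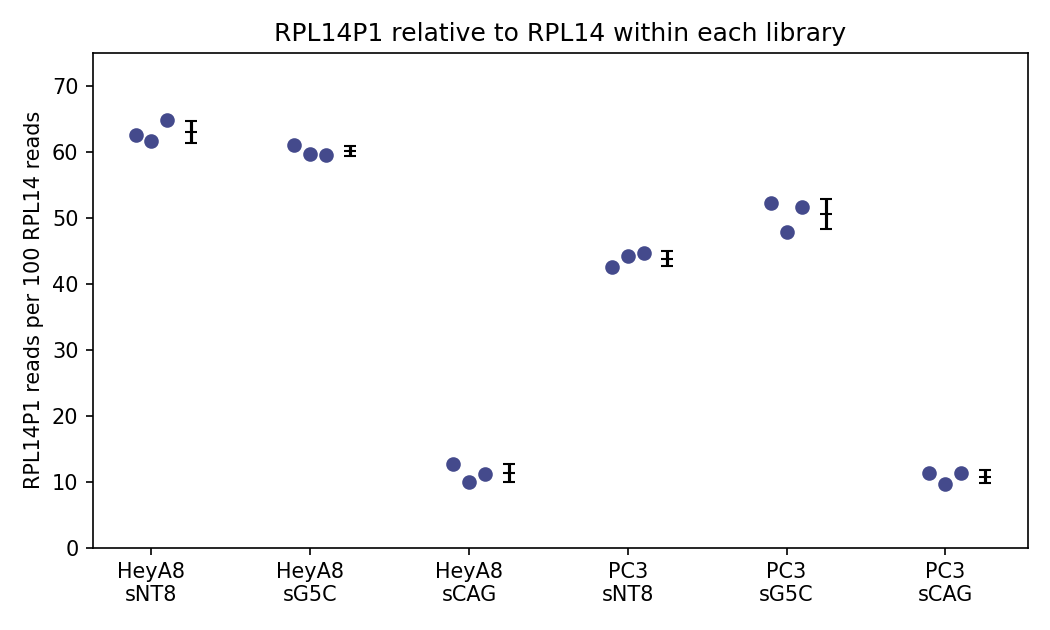
RPL14P1 reads per 100 RPL14 reads in each library (points) with the group mean and SD (black), for the 6 groups. The sCAG libraries of both lines lie between 9.65 and 12.7, while the sNT8 and sG5C libraries lie between 42.5 and 64.9.

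Other pseudogenes of ribosomal protein genes were set beside RPL14P1, each as its log2 fold change minus that of the gene it is named after. After sCAG, 151 such pseudogenes with a mean of at least 100 normalized counts in HeyA8 differed from their parent by a median of 0.09, with the lowest at -1.04, and 119 in PC3 by a median of 0.08, with the lowest at -0.49. RPL14P1 minus RPL14 was -2.46 in HeyA8 and -2.01 in PC3, below all of them in both lines. This ranking leaves out pseudogenes with fewer counts. Among those, RPL22P13 was at -3.58 and RPL11P4 at -3.33 in HeyA8, and RPSAP13 was at -2.82 in PC3, before subtraction of the parent. The ribosomal protein genes lay between -0.60 and 0.55 in HeyA8 and between -0.58 and 0.56 in PC3. These low-count pseudogenes were thus further below their parents than RPL14P1 was below RPL14. Of 403 other ribosomal protein pseudogenes tested in HeyA8 after sCAG, 113 were called higher and 30 lower, and of 380 in PC3, 45 and 42, against 29.3% of all genes called higher and 30% lower in HeyA8 and 27.4% and 23.1% in PC3. None of these pseudogenes had a lower log2 fold change than RPL14P1. RPL14P3 was the next lowest in both lines, at -5.16 ± 0.48 in HeyA8 and -4.87 ± 0.52 in PC3 (SE). It was thus also below RPL14, which was at -4.12 and -3.66. Its counts were too few for the comparison with parents above. After sG5C, RPL14P1 minus RPL14 was -0.07 in HeyA8, with 16 of 146 pseudogenes below it, and 0.21 in PC3, with 94 of 114 below it. Pseudogenes of this family share reads with their parents, and with each other, to a degree that was not measured here.

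**Figure D4:**
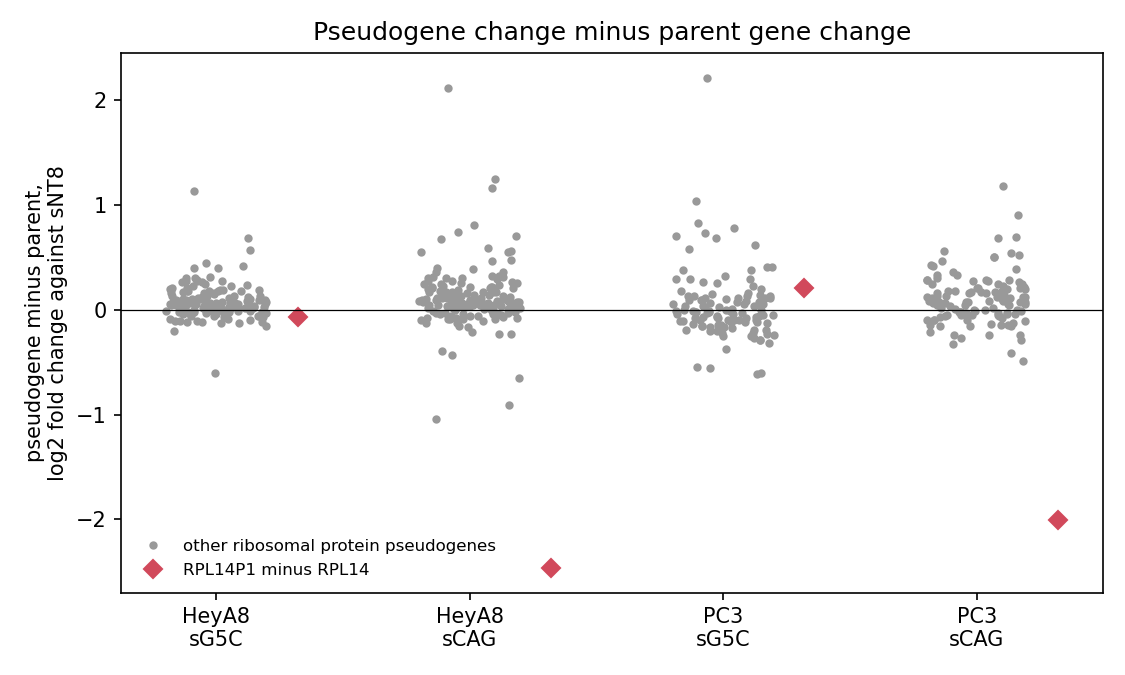
Log2 fold change of a ribosomal protein pseudogene minus that of its parent gene in 4 comparisons, for pseudogenes with a mean of at least 100 normalized counts (grey points) and for RPL14P1 (diamonds). After sCAG the diamonds lie at -2.46 in HeyA8 and -2.01 in PC3, below every grey point, and after sG5C they lie among them. Pseudogenes with fewer counts are not drawn.

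The protein-coding genes whose pattern was most like that of RPL14 were sought by the root mean square difference of log2 values, each relative to the sNT8 mean of its line, over the 12 treated libraries and 10877 genes of at least 5 CPM. The 5 nearest were SMO, which encodes the signal transducer of the Hedgehog pathway (difference 0.20), NUCB1, a calcium-binding protein of the Golgi (0.22), PRKCSH, the beta subunit of glucosidase II (0.30), BRI3BP, a membrane protein (0.41), and LRRC59, a ribosome-binding protein of the endoplasmic reticulum (0.48). Their mean log2 values after sCAG ran from -4.00 to -3.57 in HeyA8 and from -3.79 to -3.61 in PC3. The sCAG and the sG5C libraries are both part of the measure that picked these genes. Values near those of RPL14 after either short RNA therefore follow from the choice. After sG5C 3 of the 5, SMO, NUCB1 and PRKCSH, had means of -0.58 to -0.29 in HeyA8 and -0.72 to -0.57 in PC3, where RPL14 had -0.40 and -0.65. BRI3BP was at 0.14 in HeyA8 and -0.59 in PC3, and LRRC59 at -0.60 in HeyA8 and 0.04 in PC3, so each was unlike RPL14 in 1 line. Their longest CTG runs in any transcript were 7 units in SMO, 9 in BRI3BP, 6 in LRRC59 and 4 in NUCB1 and PRKCSH. How common runs of these lengths are among the 10877 genes was not counted, so a link to the run was not tested. RPL14P1 differed from RPL14 by 1.60 on this measure, and the nearest other ribosomal protein gene, RPL10A, by 2.35.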

How the data were processed

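The deposited data are 4 tables with 58395 genes, and each covers 1 line, 1 short RNA and sNT8. Per the file headers, the deposited values are a signal, counts divided by DESeq2 size factors. Per the submitters' processing notes, TopHat, Bowtie2, HTSeq and hg38 were used, and per the labels' protocols a kit for total RNA. The labels give neither tool versions nor a strand setting. All values were whole multiples of 1 step per library (tolerance 1e-06), which gave whole reads.

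The members and all lists were chosen with earlier results of these data known. Each short RNA was compared with sNT8 in its own table with limma 3.58.1 (log2 of the value plus 1, trend, robust, filterByExpr minimum 10). Contrasts over 18 libraries used edgeR 4.0.16 (TMM, quasi-likelihood) on the recovered reads, since the tables were scaled separately, and DESeq2 1.42.0 was an alternative. Adjusted p is Benjamini-Hochberg over all genes tested, threshold 0.05. Fits were tested on simulated data. Named genes were the pair, every other RPL14 pseudogene, in each comparison the 2 highest and 2 lowest other ribosomal protein genes, and the 5 genes nearest to RPL14; some genes the rule names are not reported here. The minimum of 100 for pseudogenes was chosen after the values were seen. Sequences were those of GENCODE 29. The labels do not say whether replicate letters pair libraries. Deviations from the group means correlated weakly between libraries of the same letter (-0.04 to 0.13), and the main fits used no pairing. Precision is limited by 3 libraries a group.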

Additional observations from a re-analysis of the deposited data

Results flagged for a closer look

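The ratio of RPL14P1 to RPL14 after sG5C stood out because all 3 sG5C libraries lay below the sNT8 libraries in HeyA8, by a mean of -0.068 on the log2 scale, and all 3 lay above them in PC3, by a mean of 0.21; the difference between the lines was not tested. RPL27A, a ribosomal protein gene of the large subunit, was higher in all 3 sCAG libraries than with sNT8 in HeyA8, by 0.27, and lower in all 3 in PC3, by -0.57; this difference between the lines was also not tested. Of the other ribosomal protein genes named here, 6 had an sG5C effect that differed between the lines in edgeR's interaction test, given as PC3 minus HeyA8 on the log2 scale. In this test 16 of all 78 such genes and 32.8% of 27105 genes were called. The genes named are the highest and lowest of a comparison. RPS12, RPLP0 and RPS15 were extremes of the sG5C effect in PC3, which enters this test, so their passing is not independent of that choice. RPL3 was an extreme of the sCAG effect in HeyA8, and RPL10 and RPL27A were extremes of it in PC3. The sNT8 libraries of those sCAG comparisons also enter this test, so the passing of RPL3, RPL10 and RPL27A is not independent either. RPL10 was at 0.30 (adjusted p = 0.0046), RPL3 at 0.29 (0.0016) and RPS15 at 0.34 (0.0090). RPL27A was at -0.23 (adjusted p = 0.021), RPLP0 at -0.43 (3.6e-05) and RPS12 at -0.55 (0.0056). Neither RPL14 nor RPL14P1 passed this test.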

How the results depend on the processing

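Across 20 results and 268 values under alternatives, 251 kept their direction and their side of the threshold, or moved by less than the replicate spread. With library totals, the log2 fold change after sCAG was -4.24 for RPL14 in HeyA8, -3.83 for RPL14 in PC3 and -5.84 for RPL14P1 in PC3, while the median of all genes moved by -0.12 and -0.17; relative to that median the values were -4.13, -3.66 and -5.67. With the reads of RPL14 and RPL14P1 added they were -4.67 and -4.04. The RPL14 difference between lines after sG5C was -0.44 with library totals (edgeR adjusted p = 0.0014) and -0.23 with no filter (0.010), and ran from -0.33 to -0.15 without 1 library. That of RPL14P1 was -0.17 with library totals, and ran from -0.015 to 0.11 without 1 library, negative without HeyA8 sG5C replicate A (-0.0046) and without PC3 sG5C replicate B (-0.015). RPL14 in PC3 against HeyA8 with sNT8 was 0.057 with library totals and -0.23 to -0.17 without 1 library. The cause was not tested beyond the shift of the median of all genes. With the replicate letters as a replicate block, no call of RPL14 or RPL14P1 changed (difference between lines of RPL14 -0.23, adjusted p = 0.067). The other ribosomal protein genes called went from 59 to 63 after sG5C in PC3, from 40 to 50 after sCAG in PC3 and from 55 to 57 after sCAG in HeyA8, and stayed at 70 after sG5C in HeyA8. Calls over all genes tested went from 13737 to 14230 after sG5C and from 11689 to 12258 after sCAG in PC3. In HeyA8 they went from 13041 to 13430 after sCAG and from 11735 to 11661 after sG5C. Depth limits RPL14P5 and, after sCAG, RPL14P3. Reads shared between copies limit every split between RPL14 and RPL14P1.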
